A study of Mus musculus with 43 samples.

Results

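Small RNAs of the cauda epididymis, the tail segment of the duct in which mature sperm are stored, were compared between Rnase9-12 KO and WT mice. Of the 43 libraries of the series, 6 were made from cauda tissue, 3 from WT and 3 from KO mice, and all 6 were chosen by the tissue, segment and genotype in their titles. All RNA classes that the authors counted in tissue were kept. The animals were FVB mice 8 to 12 weeks old, and only the KO mice carried a CRISPR/Cas9 deletion of the neighbouring genes Rnase9, Rnase10, Rnase11 and Rnase12. Total RNA of the tissue was treated with polynucleotide kinase, which removes phosphates from 3′ ends, and sequenced with ARM-seq, a method designed for modified small RNAs such as tRNA fragments. Nothing states how many animals gave the RNA of a tissue library, so the p-values below measure the spread between these samples. Messenger RNAs were not counted, so neither the deletion nor the labelled segment could be checked against its defining transcripts.

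The RNase A family consists of secreted ribonucleases and of related proteins, among them RNases 9-12, that lack catalytic residues of the family and are made mainly in the epididymis. The RNAs counted here serve distinct steps of gene expression. Small nuclear RNAs (snRNAs) build the spliceosome and process histone messages, small nucleolar RNAs (snoRNAs) guide the modification of rRNA, and small Cajal body RNAs (scaRNAs) guide that of snRNAs. 7SL RNA is the scaffold of the particle that targets secretory proteins to the endoplasmic reticulum, microRNAs (miRNAs) repress messages that match their seed, and fragments of tRNAs (tRFs) are a major cargo of epididymal fluid and maturing sperm.

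The table listed 4890 RNAs, of which 3488 passed a filter on low counts. Summed counts ran from 31942688 to 158606180 in the WT libraries and from 30142156 to 67360266 in the KO libraries. A read that matched several RNAs equally well was counted on each, so copies of a gene share reads and are not independent measurements. Summed counts are therefore not numbers of reads. Repeats of 5S rRNA made 63.3% to 72.6% of them in WT and 71.3% to 73.4% in KO libraries. Shares of counts and values with library totals only depend on these sums. Scaling factors of the trimmed mean of M values (TMM) were 0.943, 0.647 and 1.45 in WT and 0.503, 0.551 and 1.05 in KO replicates 1, 2 and 3, and abundances are given as counts scaled to a common library total (CPM). Log2 counts of replicates correlated at 0.932 to 0.973 (Pearson's r across RNAs, which are not independent replicates). The median log2 fold change of all tested RNAs was 0.12, and it moved to -0.42 with library totals only, to -0.27 with factors that left out tRFs, tRNAs and rRNA, to -0.02 with factors from miRNAs and to 0.01 with DESeq2 size factors. A tissue library cannot tell fewer cells of a type from less RNA per cell.

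A call required edgeR's quasi-likelihood test to give an adjusted p below 0.05 together with a log2 fold change beyond 1 in either direction. At this rule 29 RNAs were lower (0.831% of those tested) and 1 was higher (0.0287%) in the KO. The lower RNAs were 20 repeats of 28S rRNA, 3 tRFs cut from within tRNAs, 5 snRNA genes similar to U1 and 1 copy of U7 snRNA. The higher RNA was the snoRNA gene Gm26247. Same-numbered WT and KO libraries of the cauda deviated together from their group means (r = 0.281, 0.272 and 0.596), and a model with a block for the replicate number called 124 RNAs lower (3.56%) and 202 higher (5.79%). Counts were also summed by family, with snRNA genes joined by gene name. Copies with Gm names, among them the called genes similar to U1, therefore stayed separate entries that share reads. No family was called (117 families lower and 129 higher at an unadjusted p below 0.05, edgeR). DESeq2 called 33 lower and 9 higher, and the replicate block 63 (2.79%) and 108 (4.79%). Blocked values are therefore given wherever they change a call, although the pairing was chosen from these same data.

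The 5 called genes similar to U1, the snRNA that recognizes 5′ splice sites, shared a sequence. Of these, 4 were assigned to U1 by the rule on identity, and Gm23518 was left unassigned by it, since 83 of its 153 bases aligned (86.7% identical to Rnu1b1). The gene Rnu1a1 and the 5 called genes are printed because the result turns on what they have in common, with capitals for the 24 bases that all of them hold without a mismatch (GENCODE M21, GRCm38). The sequences of Rnu1a1 (chr11:87422867-87423030, plus strand) and Gm23518 (chr16:35387933-35388085, minus strand) are whole, and those of Gm25134 (chr7:19242130-19242289, plus strand, within an intron of Opa3), Gm24200 (chr9:94284496-94284652, plus strand), Gm23680 (chr10:12363410-12363573, plus strand) and Gm22866 (chr9:90351995-90352171, plus strand) are bases 1 to 47.
Rnu1a1: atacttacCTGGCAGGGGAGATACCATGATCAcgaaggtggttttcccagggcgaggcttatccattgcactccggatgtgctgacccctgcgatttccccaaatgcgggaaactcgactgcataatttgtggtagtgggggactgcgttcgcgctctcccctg
Gm23518: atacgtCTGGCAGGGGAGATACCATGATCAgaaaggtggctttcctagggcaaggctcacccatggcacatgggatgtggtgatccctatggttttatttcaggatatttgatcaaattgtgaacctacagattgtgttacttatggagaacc
Gm25134: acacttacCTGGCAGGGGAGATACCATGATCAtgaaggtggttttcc
Gm24200: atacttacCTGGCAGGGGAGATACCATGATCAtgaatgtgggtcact
Gm23680: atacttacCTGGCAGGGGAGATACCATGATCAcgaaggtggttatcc
Gm22866: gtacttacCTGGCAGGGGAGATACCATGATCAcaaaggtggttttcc

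Gm23518 had 48.3, 58.0 and 52.5 CPM in WT replicates 1, 2 and 3 and 7.91, 18.6 and 16.2 CPM in KO replicates 1, 2 and 3. No KO library reached the lowest WT library. The log2 fold change was -1.89 (SE 0.342, adjusted p = 0.0081, edgeR). Gm25134 had 66.6, 77.5 and 84.1 CPM in WT and 13.1, 29.5 and 29.6 CPM in KO libraries, again without overlap (log2 fold change -1.66, adjusted p = 0.0423, edgeR). The other 3 called genes gave log2 fold changes of -1.65 for Gm24200, -1.58 for Gm23680 and -1.56 for Gm22866 (adjusted p = 0.0423, 0.0473 and 0.0486, edgeR). Calls of Gm25134, Gm24200, Gm23680 and Gm22866 were lost without WT replicate 1 (adjusted p = 0.0724, 0.0724, 0.0786 and 0.0821, edgeR), and those of Gm23680 and Gm22866 also without WT replicate 3 (adjusted p = 0.0526 for each). All 5 calls were lost with library totals only (adjusted p from 0.0588 for Gm23518 to 0.175), with factors from miRNAs (from 0.0565 to 0.139) and in a model of the 6 cauda libraries alone (from 0.0747 to 0.142). The log2 fold changes with library totals only were -2.35 for Gm23518 and -2.02 to -2.12 for the other 4.

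The 24-base run lies at bases 9 to 32 of Rnu1a1, next to the 5′ end that pairs with splice sites, and 28 of the 807 snRNA genes listed (3.47%) held it. All 28 were tested. Of these, 18 had negative and 10 positive fold changes, 9 were lower at an unadjusted p below 0.05 (7.37% of all RNAs) and none was higher (7.74% of all RNAs). With the replicate block 8 of the 28 were called lower (3.56% of all RNAs) and none higher (5.79%). The run was defined from the 5 called genes, which are among the 28, so these counts are a description and not a test. Without scaling all 28 were negative, with factors that left out tRFs, tRNAs and rRNA 20, and with factors from miRNAs 18. Gm24405, a copy within Kif26b and not called, had 74.9, 90.2 and 95.3 CPM in WT and 17.7, 38.3 and 43.4 CPM in KO libraries (log2 fold change -1.39, adjusted p = 0.0794, and 0.0037 with the replicate block, edgeR).

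The U1 genes themselves had other values. Rnu1a1 had 1869, 3088 and 1739 CPM in WT and 3487, 4647 and 1696 CPM in KO libraries. These ranges overlapped, and the log2 fold change of 0.55 (adjusted p = 0.496, edgeR) became -0.04 with library totals only. Rnu1b6 had a log2 fold change of -0.38 (adjusted p = 0.554, edgeR). Within each library, the count of Gm23518 was 2.59%, 1.88% and 3.02% of the count of Rnu1a1 in WT and 0.227%, 0.399% and 0.953% in KO replicates 1, 2 and 3, a ratio that no scaling factor enters. Each of the other 27 holders of the run had at least as many counts as Gm23518 in all 6 libraries. Which of these counts were reads shared between copies was not tested.

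**Figure D1:**
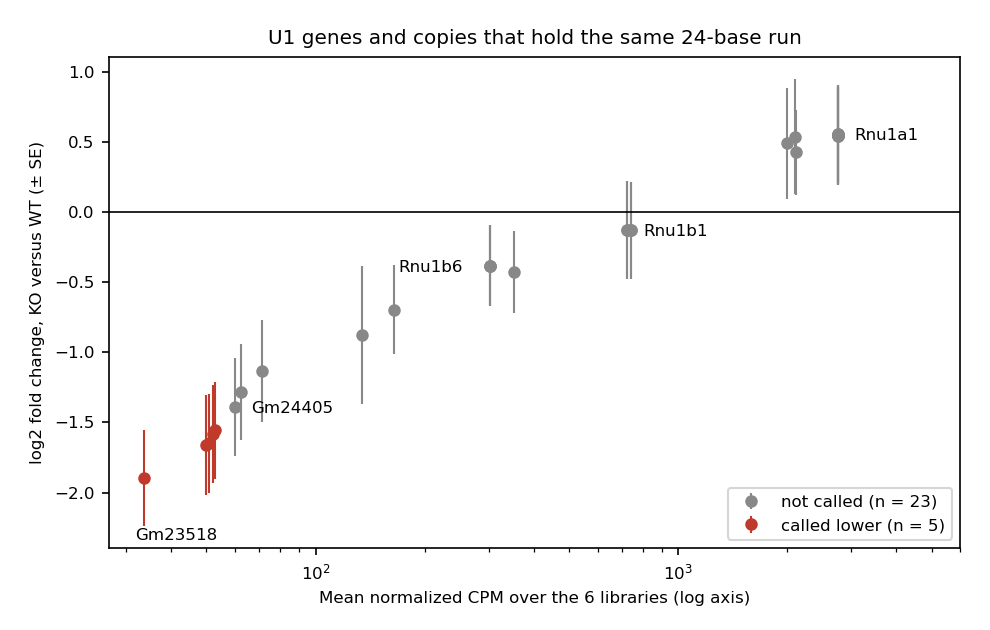
Log2 fold change (KO versus WT, bars ± SE) against mean normalized CPM over the 6 libraries (log axis, not corrected for length) for the 28 snRNA genes that hold the 24-base run, with the 5 called genes in red. Gm23518 lies lowest at -1.89, Gm24405 at -1.39 and Rnu1b6 at -0.38, and Rnu1a1 lies above 0 at 0.55 (-0.04 with library totals only).

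U7 snRNA forms the particle that cleaves the 3′ ends of replication-dependent histone messages. The called copy Gm23763 (chr1:136990211-136990270, minus strand) and the gene Rnu7 (chr6:124741225-124741286, minus strand) are printed to show the 37 bases, in capitals, over which they do not differ (GENCODE M21, GRCm38).
Gm23763: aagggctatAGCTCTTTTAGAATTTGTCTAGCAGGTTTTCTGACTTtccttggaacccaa
Rnu7: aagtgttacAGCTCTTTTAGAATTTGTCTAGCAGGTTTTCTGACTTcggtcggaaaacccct

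Rnu7 had 1.66, 1.95 and 3.02 CPM in WT and 0.593, 1.36 and 0.678 CPM in KO libraries. All 3 KO libraries were below the lowest WT library (log2 fold change -1.34, adjusted p = 0.186, and 0.0339 with the replicate block, edgeR). Gm23763 had 0.631, 0.611 and 0.304 CPM in WT and 0.0659, 0.183 and 0.0424 CPM in KO libraries, where its counts were 1, 5 and 3. Its groups did not overlap (log2 fold change -2.47, SE 0.561, adjusted p = 0.0486, edgeR), but the counts of the KO were close to the lowest that can be seen, and the call was lost without WT replicate 1 (adjusted p = 0.165), without WT replicate 2 (0.0847), without KO replicate 1 (0.0649), without KO replicate 3 (0.0963), with factors from miRNAs (0.108) and in the 6 cauda libraries alone (0.152). The log2 fold change of Gm23763 ran from -1.91 without KO replicate 3 to -3.51 without KO replicate 2. In the fit of families, where snRNA genes were joined by gene name, the U7 entry did not include Gm23763. That entry had a log2 fold change of -1.61 (adjusted p = 0.368, and 0.0079 with the replicate block, edgeR).

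The remaining snRNA types were close to the median of all RNAs. Of 373 tested U6 copies 248 were positive (median 0.26), of 25 U2 copies 13 (median 0.15) and of 11 U5 copies 7 (median 0.27), and none was called. With the replicate block 25 of the 373 U6 copies were called higher (5.79% of all RNAs), a share near that of all RNAs. Rnu5g, a U5 RNA of the spliceosome that holds the exons at the catalytic centre, had 494, 510 and 525 CPM in WT and 997, 1126 and 458 CPM in KO libraries, so that KO replicate 3 lay below all WT libraries (log2 fold change 0.76, adjusted p = 0.249, edgeR). Rnu12, the branch-site RNA of the minor spliceosome, had 233, 241 and 133 CPM in WT and 774, 378 and 141 CPM in KO libraries, with overlap (log2 fold change 1.09, adjusted p = 0.357, edgeR).

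Among all classes with 20 or more tested members, C/D box snoRNAs, which guide 2′-O-methylation, had the highest median. All 81 listed genes passed the filter, 80 were positive, with a median log2 fold change of 1.29, against 0.12 for all RNAs. In 40 of the 81 every KO library lay above every WT library (6.91% of all RNAs) and in none below (10.1%). At an unadjusted p below 0.05, 47 were higher (7.74% of all RNAs) and none was lower. No member was called (smallest adjusted p = 0.057, edgeR). The replicate block called 45 higher (5.79% of all RNAs) and DESeq2 17 (69 of all 3488 RNAs). The median was 0.61 with 65 positive members with library totals only, 0.75 with factors that left out tRFs, tRNAs and rRNA, 1.1 with factors from miRNAs, and between 0.75 and 1.42 as each library was left out.

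**Figure D2:**
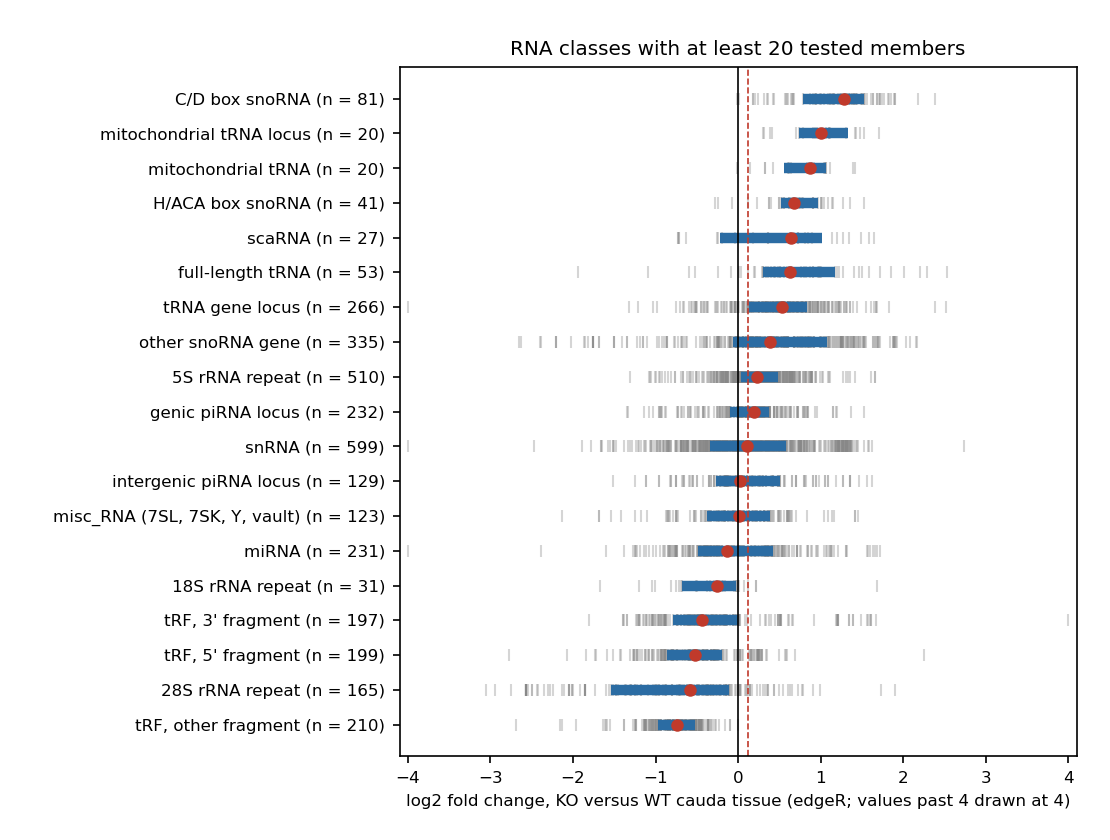
Log2 fold changes, KO versus WT cauda tissue, of the tested RNAs (grey ticks) in each class with at least 20 members, with quartiles (blue bars) and median (red points). The dashed line is the median of all RNAs, 0.12. C/D box snoRNAs lie at the top with a median of 1.29 and internal tRFs at the bottom with -0.74.

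Per library, the median log2 CPM of the C/D box snoRNAs was 2.86, 2.85 and 3.07 in WT and 4.14, 4.44 and 3.62 in KO replicates 1, 2 and 3. All KO libraries were above all WT libraries, with KO replicate 3 nearest to the WT. The difference of 1.14 had the smallest p that 3 against 3 libraries can give (p = 0.1, 2-sided exact permutation test, adjusted p = 0.511 over 46 comparisons). The share of summed counts on these snoRNAs needs no scaling factor, but its total holds reads counted on several copies. This share was 0.198%, 0.0970% and 0.228% in WT and 0.311%, 0.341% and 0.281% in KO libraries, also without overlap (p = 0.1, exact permutation test). The 2 KO libraries with the highest medians, replicates 1 and 2, also had the 2 lowest TMM factors, and the part of depth and composition in the difference was not tested.

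The snoRNAs with the values described next are printed with, in capitals, the C box core TGATGA where it occurs in the first 25 bases and the D box CTGA where it occurs in the last 25 (GENCODE M21, GRCm38, transcript strand). Both were found in 52 of the 81 C/D box snoRNAs (64.2%), in none of 41 H/ACA box snoRNAs and in 65 of 493 other snoRNA genes (13.2%), and a match of letters is not evidence of a functional box.
Snord96a (chr11:48802032-48802112, plus strand, within Rack1): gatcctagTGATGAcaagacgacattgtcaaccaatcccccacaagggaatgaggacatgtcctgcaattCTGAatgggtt
Snord80 (chr1:161037604-161037680, plus strand, within Gas5): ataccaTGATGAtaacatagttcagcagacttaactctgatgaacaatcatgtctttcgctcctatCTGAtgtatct
Snord88a (chr7:44250135-44250224, plus strand, within 2410002F23Rik): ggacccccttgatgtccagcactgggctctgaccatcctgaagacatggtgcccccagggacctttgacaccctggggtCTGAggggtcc
Gm26247 (chr7:44248090-44248180, plus strand, within 2410002F23Rik): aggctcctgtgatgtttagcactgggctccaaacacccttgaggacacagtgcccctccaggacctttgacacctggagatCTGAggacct
Gm23130 (chr10:23786470-23786543, minus strand, within Rps12): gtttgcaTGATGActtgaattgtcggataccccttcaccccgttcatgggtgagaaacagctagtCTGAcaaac

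Snord96a, within the ribosomal scaffold gene Rack1, had 25.5, 19.5 and 28.4 CPM in WT and 109, 201 and 72.9 CPM in KO libraries. The lowest KO library was well above the highest WT library. The log2 fold change was 2.38 (SE 0.551, adjusted p = 0.057, and 0.0024 with the replicate block, edgeR). Snord80, one of the snoRNAs within Gas5, a host gene that makes no protein, had 32.8, 26.8 and 33.4 CPM in WT and 104, 182 and 60.6 CPM in KO libraries. Here too the groups were apart (log2 fold change 1.90, adjusted p = 0.0749, and 0.0058 with the replicate block, edgeR). Snord95 and Gm25296, which are 95.3% identical and lie with Snord96a in Rack1, had log2 fold changes of 1.83 and 1.92 (adjusted p = 0.128 and 0.0705, and 0.003 for each with the replicate block, edgeR). Snord2, within the translation initiation factor gene Eif4a2, had 201, 123 and 337 CPM in WT and 612, 722 and 675 CPM in KO libraries (log2 fold change 1.61, adjusted p = 0.206, and 0.0076 with the replicate block, edgeR).

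Snord15b, within Rps3, had a wide spread, with 392, 167 and 8.57 CPM in WT and 1431, 414 and 15.3 CPM in KO libraries. Replicates 3 of both genotypes were low, and the log2 fold change of 1.71 (adjusted p = 0.625, and 0.0308 with the replicate block, edgeR) became -0.23 without KO replicate 1. U3 snoRNA, the C/D box RNA needed to cleave the rRNA precursor, was counted on the 4 copies Rnu3b1 to Rnu3b4, which share counts, and on Rnu3a. Rnu3b1 had 692, 710 and 370 CPM in WT and 2323, 1329 and 545 CPM in KO libraries, with KO replicate 3 inside the WT range (log2 fold change 1.24, adjusted p = 0.19, and 0.0111 with the replicate block, edgeR). Rnu3a had a log2 fold change of 0.56 (adjusted p = 0.319, edgeR), which became -0.12 with library totals only and -0.06 without KO replicate 1.

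Gm26247, the RNA called higher, lies in the same host transcript as Snord88a and is 80.5% identical to Snord88c. Gm26247 had 3.88, 3.93 and 3.56 CPM in WT (3.79 ± 0.204, SD, n = 3) and 12.0, 13.4 and 6.41 CPM in KO libraries (10.6 ± 3.71, SD, n = 3). KO replicate 3 was lowest of the KO but above all WT libraries (log2 fold change 1.48, SE 0.333, adjusted p = 0.0486, edgeR). The call held without KO replicate 3, by DESeq2 and with the replicate block, and was lost in each other leave-one-out model (adjusted p from 0.156 to 0.286) and under each other alternative (adjusted p from 0.0654 to 0.412). Snord88a had 5.68, 5.54 and 5.44 CPM in WT and 18.3, 15.9 and 8.23 CPM in KO libraries, the same order as its neighbour (log2 fold change 1.35, adjusted p = 0.0749, and 0.0076 with the replicate block, edgeR).

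The 335 tested snoRNA genes without a box class in their name (of 493 listed) had a median of 0.38, and 241 were positive. The median was -0.19 with library totals only and -0.04 with factors that left out tRFs, tRNAs and rRNA, so that no direction held for this group. With the replicate block 63 of the 335 were called higher (5.79% of all RNAs) and none lower (3.56%). Gm23130 had 48.4, 29.5 and 54.7 CPM in WT and 179, 265 and 152 CPM in KO libraries. Every KO library was above every WT library (log2 fold change 2.17, adjusted p = 0.118, and 0.003 with the replicate block, edgeR). Gm25878, within Zfas1, had 10.8, 9.66 and 8.75 CPM in WT and 38.8, 70.6 and 20.3 CPM in KO libraries (log2 fold change 2.15, adjusted p = 0.136, and 0.0101 with the replicate block, edgeR).

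H/ACA box snoRNAs, which guide pseudouridylation, had smaller fold changes. Of 41 tested members 38 were positive with a median of 0.68 (0.11 with library totals only), 8 were higher at an unadjusted p below 0.05 (7.74% of all RNAs) and 3 were called higher with the replicate block (5.79% of all RNAs), the latter a share near that of all RNAs. Snora61, within Snhg12, had 11.1, 7.37 and 10.5 CPM in WT and 28.5, 26.7 and 15 CPM in KO libraries, without overlap (log2 fold change 1.27, adjusted p = 0.0705, and 0.0104 with the replicate block, edgeR). Snora19, within the translation initiation factor gene Eif3a, had 2.36, 3.55 and 2.18 CPM in WT and 11.7, 8.22 and 3.35 CPM in KO libraries. KO replicate 3 fell inside the WT range (log2 fold change 1.52, adjusted p = 0.0994, and 0.0087 with the replicate block, edgeR).

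Of 27 tested scaRNAs 18 were positive, with a median of 0.64 (0.015 with library totals only). Scarna2 had 2.12, 1.26 and 2.04 CPM in WT and 5.34, 7.48 and 4.19 CPM in KO libraries. The groups were apart (log2 fold change 1.64, adjusted p = 0.0941, and 0.0066 with the replicate block, edgeR). Gm25395, within Atg16l1, had 2.52, 2.25 and 1.21 CPM in WT and 9.69, 6.20 and 2.10 CPM in KO libraries, and KO replicate 3 overlapped the WT (log2 fold change 1.59, adjusted p = 0.161, and 0.0109 with the replicate block, edgeR).

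7SL genes had mostly positive fold changes under TMM, and none was called. Rn7s1 (chr12:69159295-69159594, plus strand) had 468, 455 and 468 CPM in WT (464 ± 7.48, SD, n = 3) and 1385, 1519 and 804 CPM in KO libraries (1236 ± 380, SD, n = 3). Under TMM the WT libraries were close to each other and all KO libraries were above them. The log2 fold change was 1.41 (SE 0.412, adjusted p = 0.124, and 0.014 with the replicate block, edgeR). Rn7s2 shared its reads (log2 fold change 1.41), and Rn7s6 had a log2 fold change of 1.45 (adjusted p = 0.158, and 0.0155 with the replicate block, edgeR). Of 13 tested 7SL-like genes 12 were positive (median 0.63). The median was 0.19 with library totals only (10 positive) and 0.01 without KO replicate 3. With the replicate block 4 were called higher (5.79% of all RNAs).

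Y RNAs, which bind the Ro60 quality-control protein, and vault RNA, a part of the vault particle, gave values of the same sign. Rny1 had 69.5, 86.7 and 102 CPM in WT and 157, 238 and 135 CPM in KO libraries, without overlap (log2 fold change 1.04, adjusted p = 0.161, and 0.0273 with the replicate block, edgeR). Rny3 had a log2 fold change of 0.48 (adjusted p = 0.574, edgeR), which became -0.10 with library totals only. Vaultrc5 had 9.29, 11.9 and 7.68 CPM in WT and 19, 31.2 and 11.2 CPM in KO libraries, so that KO replicate 3 was inside the WT range (log2 fold change 1.09, adjusted p = 0.134, and 0.0222 with the replicate block, edgeR). The RNAs of both ribozymes had overlapping or close groups. Rmrp, the RNA of RNase MRP, had 40.9, 41.7 and 37.8 CPM in WT and 97, 90.6 and 41.4 CPM in KO libraries (log2 fold change 0.93, adjusted p = 0.183, edgeR), and Rpph1, the RNA of RNase P, a log2 fold change of 0.52 (adjusted p = 0.543, edgeR; -0.09 with library totals only). Rn7sk, which holds the elongation factor P-TEFb inactive, had a log2 fold change of 0.83 (adjusted p = 0.442, edgeR).

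The 93 tested copies similar to 7SK had a median of -0.15, and 38 were positive. Gm25780, 88.7% identical to Rn7sk over 168 of its 253 bases and within Plekha5, had 0.996, 0.763 and 0.804 CPM in WT and 0.198, 0.477 and 0.212 CPM in KO libraries. All KO libraries were below all WT libraries (log2 fold change -1.53, adjusted p = 0.124, and 0.0325 with the replicate block, edgeR).

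**Figure D3:**
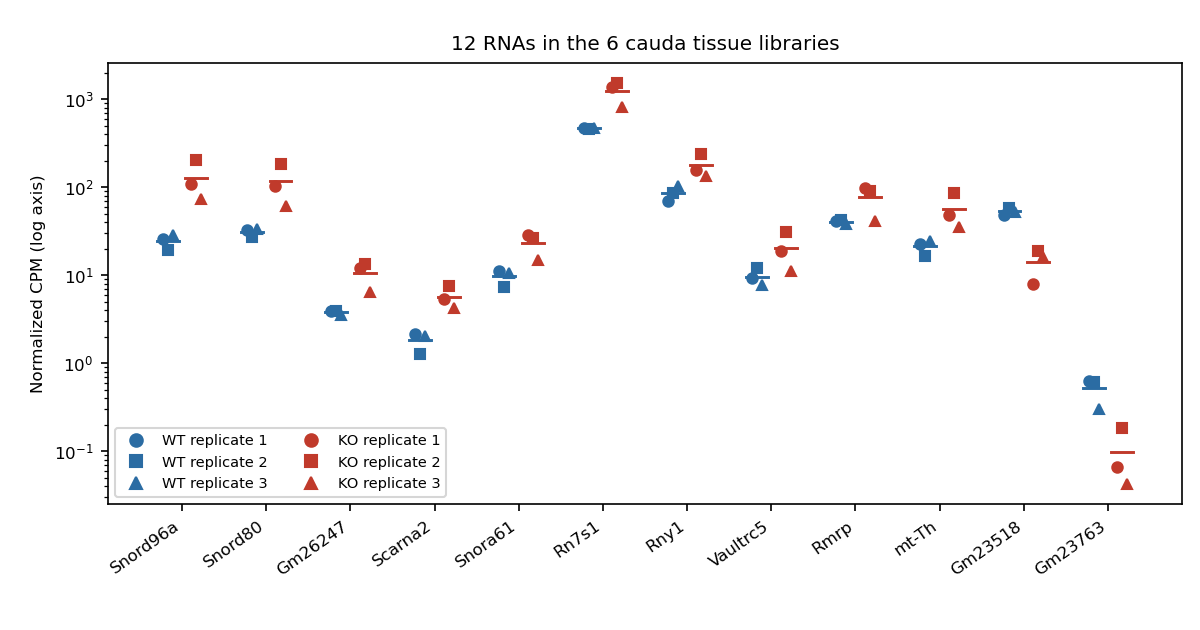
Normalized CPM (log axis) of 12 RNAs in the 3 WT (blue) and 3 KO (red) cauda libraries, with marker shape for the replicate number and lines for group means. Rn7s1 lies at 464 CPM in WT and 1236 CPM in KO on average, and Gm23518 and Gm23763 are the only RNAs of the 12 with all KO points below the WT points.

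Of 231 tested RNAs annotated as miRNA none was called. At an unadjusted p below 0.05, 5 were lower (7.37% of all RNAs) and 9 higher (7.74%, edgeR). DESeq2 called 1 lower (105 of all 3488 RNAs) and 5 higher (69 of all 3488). The median was -0.13 and 100 were positive. Some entries overlap another small RNA gene on the same strand. Of 26 such entries 23 were positive (median 0.96, and 0.27 with library totals only). With the replicate block 10 were called higher (5.79% of all RNAs). Of the 205 entries without such an overlap 77 were positive (median -0.26). With the replicate block 1 of these was called, lower (3.56% of all RNAs). The 2 sets were formed after the values of some members were known, so their difference was not tested.

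A pair of stretches of Rn7s1 are annotated as the miRNA genes Gm47295 and Gm47287, and the last bases of Gm23658, a copy 100% identical to Snora19 within an intron of Cbwd1, as Mir3084-1. The host Gm23658 is printed with the annotated stretch in capitals (GENCODE M21, GRCm38), followed by the mature sequences of Mir3084-1 (RefSeq, GRCm38.p6; 256 of 415 entries matched by symbol) with the seed, bases 2 to 8, in capitals.
Gm23658 (chr19:24942236-24942367, minus strand): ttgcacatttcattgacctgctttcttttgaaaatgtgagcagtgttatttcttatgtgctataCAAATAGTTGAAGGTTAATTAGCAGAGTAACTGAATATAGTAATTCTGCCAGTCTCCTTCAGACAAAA
miR-3084-5p: gUUGAAGGuuaauuagcagagu
miR-3084-3p: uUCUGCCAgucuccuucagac

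Gm47295, in Rn7s1, had 96.5, 103 and 110 CPM in WT and 259, 291 and 218 CPM in KO libraries, without overlap, as Rn7s1 had (log2 fold change 1.31, adjusted p = 0.128, and 0.0167 with the replicate block, edgeR). Gm47287, also in Rn7s1, had 92.8, 79.2 and 43.4 CPM in WT and 349.6, 239 and 82.5 CPM in KO libraries (log2 fold change 1.64, adjusted p = 0.161, and 0.018 with the replicate block, edgeR). Gm47304, in Rn7s6, had 43.0, 26.3 and 24 CPM in WT and 174, 84.4 and 42.1 CPM in KO libraries (log2 fold change 1.69, adjusted p = 0.148, and 0.014 with the replicate block, edgeR). In both, KO replicate 3 was inside the WT range, although the groups of Rn7s1 and of Rn7s6 did not overlap. Mir3084-1 had 2.22, 3.44 and 2.08 CPM in WT and 11.3, 8.22 and 3.20 CPM in KO libraries, and its host Gm23658 2.32, 3.55 and 2.19 CPM and 11.5, 8.36 and 3.32 CPM. The values of the miRNA entry were just below those of its host in all 6 libraries (log2 fold changes 1.55 and 1.52, adjusted p = 0.0994 for each, and 0.0077 and 0.0087 with the replicate block, edgeR). Mir5121, in Snord33 within Rpl13a, had 3.35, 4.01 and 2.16 CPM in WT and 9.63, 18.3 and 3.22 CPM in KO libraries, with KO replicate 3 inside the WT range (log2 fold change 1.72, adjusted p = 0.161, and 0.0177 with the replicate block, edgeR).

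**Figure D4:**
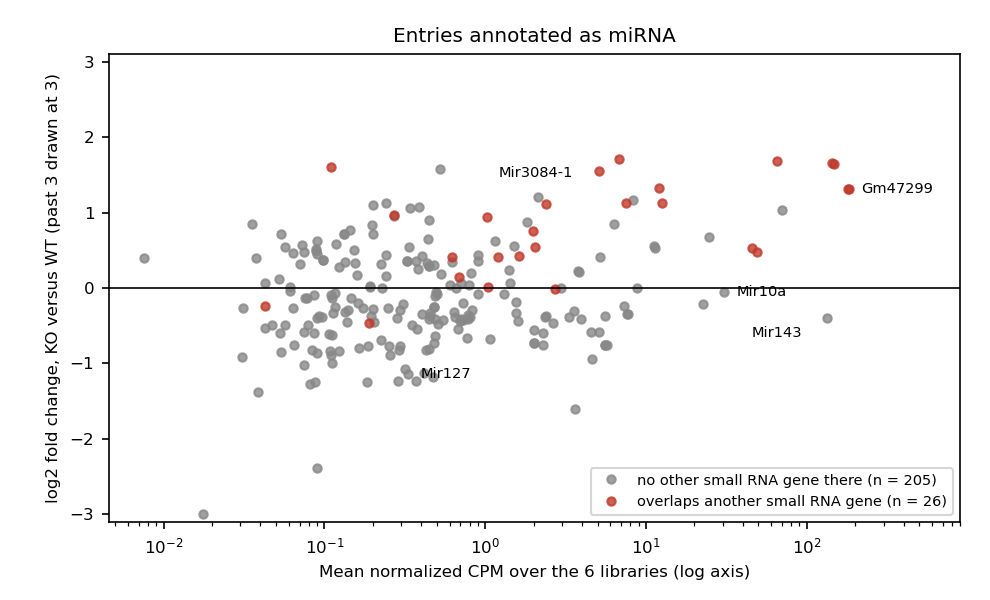
Log2 fold change against mean normalized CPM over the 6 libraries (log axis) for the 231 tested RNAs annotated as miRNA, with the 26 that overlap another small RNA gene on the same strand in red. Red points lie mostly above 0, with Gm47299 at 1.31 and Mir3084-1 at 1.55, and grey points lie on both sides of it.

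The miRNA families and the miRNAs that mark cell types held no called member. The mature sequences of the best counted members with an entry are given for 3 families and for the imprinted Dlk1-Dio3 cluster, each with a seed of its own in capitals (RefSeq, GRCm38.p6).
let-7c-5p: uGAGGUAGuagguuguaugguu
miR-10a-5p: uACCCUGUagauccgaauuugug
miR-26a-5p: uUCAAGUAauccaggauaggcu
miR-127-3p: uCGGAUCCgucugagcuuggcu

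Of 12 tested let-7 hairpins 5 were positive (median -0.30). Of 8 hairpins in a list of miR-10, miR-99, miR-100 and miR-125, 1 was positive (median -0.27). Of 6 miR-30 hairpins 2 were positive (median -0.25), and of 3 miR-26 hairpins none (median -0.75). The reference was 0.12 over all RNAs. Mirlet7c-2 had 11.7, 5.92 and 10.3 CPM in WT and 10.7, 16.4 and 13.2 CPM in KO libraries, which overlapped (log2 fold change 0.53, adjusted p = 0.55, edgeR; -0.07 with library totals only). Mir10a had 39.2, 24.3 and 29.3 CPM in WT and 33.6, 33.7 and 22.3 CPM in KO libraries, with a log2 fold change of -0.05 that turned positive without WT replicate 1 (0.15) or KO replicate 3 (0.10). Mir26a-2 had 9.43, 4.77 and 6.66 CPM in WT and 3.76, 5.10 and 3.56 CPM in KO libraries, overlapping in KO replicate 2 (log2 fold change -0.75, adjusted p = 0.386, edgeR). Mir127, of the Dlk1-Dio3 cluster, had 0.564, 0.420 and 0.395 CPM in WT and 0.198, 0.220 and 0.198 CPM in KO libraries, without overlap and at low counts (log2 fold change -1.14, adjusted p = 0.173, edgeR). Of 6 tested members of that cluster 1 was positive (median -0.69).

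Marker miRNAs of cell types that cauda tissue can hold were summed per library. The 5 epithelial miR-200 family hairpins summed to 8.67 to 15.7 CPM in WT and 7.79 to 13.1 CPM in KO libraries, with 1 of 5 positive (median -0.46). The 2 tested smooth muscle hairpins summed to 107.7 to 215.5 CPM in WT and 107 to 140.3 CPM in KO libraries, and Mir143, the more counted of them, had a log2 fold change of -0.40 (adjusted p = 0.61, edgeR). The 4 fibroblast hairpins summed to 5.57 to 10.3 CPM in WT and 4.68 to 6.38 CPM in KO libraries, with none positive (median -0.38), and the 3 tested blood and immune hairpins to 0.534 to 0.977 CPM and 0.396 to 0.550 CPM. The 5 tested hairpins of the male germ line X-linked clusters were all positive (median 0.37), with sums of 0 to 0.973 CPM in WT and 0.880 to 1.32 CPM in KO libraries. The WT and KO ranges of these sums overlapped, as did those of the single tested markers of basal epithelium (Mir205), endothelium (Mir126a), motile cilia and germ cells (Mir34c) and neuroendocrine cells (Mir375). Those of the 4 tested striated or smooth muscle hairpins did not, with 4.2 to 6.97 CPM in WT and 3.05 to 4.09 CPM in KO libraries, and 2 of the 4 were positive (median -0.36). The part of cell composition in the other results was not tested.

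Mitochondrial RNAs, which come from the organelle's own transcripts, had mostly positive fold changes under TMM, although none was called. All 20 tested mitochondrial tRNA loci were positive with a median of 1.0 (0.38 with library totals only, 16 positive). With the replicate block 5 of these loci were called higher (5.79% of all RNAs). Of 20 tested annotated mitochondrial tRNA genes 19 were positive with a median of 0.87 (0.25 with library totals only, 14 positive). That median became -0.19 without KO replicate 2. With the replicate block 1 of these genes was called higher (5.79% of all RNAs), a share near that of all RNAs. The gene mt-Th, the histidine tRNA, is printed as the member with the smallest p among the annotated genes (chrM:11546-11612, plus strand, GENCODE M21, GRCm38).
mt-Th: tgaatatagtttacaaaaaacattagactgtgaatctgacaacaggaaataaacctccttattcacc

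mt-Th had 22.7, 16.3 and 24.6 CPM in WT and 47.7, 86.3 and 34.9 CPM in KO libraries. The groups were apart, with KO replicate 2 highest (log2 fold change 1.41, adjusted p = 0.123, and 0.0158 with the replicate block, edgeR). The locus of mitochondrial tRNA-Lys had 2.52, 2.90 and 0.660 CPM in WT and 7.91, 8.80 and 2.88 CPM in KO libraries, and KO replicate 3 lay just below the highest WT library (log2 fold change 1.71, adjusted p = 0.19, and 0.003 with the replicate block, edgeR). The large mitochondrial rRNA had 1984, 3978 and 1524 CPM in WT and 9873, 10552 and 4332 CPM in KO libraries, all above the WT (adjusted p = 0.094, and 0.0028 with the replicate block, edgeR). The valine tRNA mt-Tv had 2.44 CPM in KO replicate 3 against 3.36 CPM in the lowest WT library, and its log2 fold change of 1.12 became -0.41 without KO replicate 2.

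Fragments of cytoplasmic tRNAs had mostly negative fold changes. Their shares of summed counts overlapped between genotypes (p = 0.2 for internal, 0.3 for 5′ and 0.4 for 3′ fragments, exact permutation test). Per library, the median log2 CPM of internal fragments was 3.43, 3.50 and 3.73 in WT and 2.83, 2.65 and 2.97 in KO. These groups did not overlap (p = 0.1, exact permutation test), whereas those of 5′ and 3′ fragments did (p = 0.5 for each). Of 210 tested fragments cut from within a tRNA, none was positive (median -0.74), 3 were called lower, 107 were lower at an unadjusted p below 0.05 (7.37% of all RNAs) and in 126 every KO library was below every WT library (10.1% of all RNAs). With the replicate block 40 were called lower (3.56% of all RNAs) and by DESeq2 46 (105 of all 3488 RNAs). Internal fragments of tRNA-Lys-CTT-14 had log2 fold changes from -1.93 to -1.46 as each library was left out (adjusted p at most 0.0489, edgeR). tRNA-Gly-GCC-1, whose internal fragments were among the best counted, had 401, 439 and 521 CPM in WT and 156, 250 and 305 CPM in KO libraries, without overlap (log2 fold change -0.94, adjusted p = 0.189, edgeR). Among 199 tested 5′ fragments 41 were positive (median -0.52). The 5′ fragments of tRNA-Val-CAC-4 had 5.81, 6.91 and 5.95 CPM in WT and 1.91, 2.49 and 1.78 CPM in KO libraries, well apart (log2 fold change -1.59, adjusted p = 0.0577, and 0.003 with the replicate block, edgeR). Those of tRNA-Val-AAC-4, with nearly the same counts, had a log2 fold change of -1.73 (adjusted p = 0.0653, and 0.002 with the replicate block, edgeR).

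The 3′ fragments of tRNA-Cys-GCA, the cysteine tRNA, stood on the other side. All 20 tested isodecoders (genes with the same anticodon and different bodies) were positive with a median of 1.37. In 18 every KO library was above every WT library (6.91% of all RNAs), and 16 were called higher with the replicate block (5.79%). The median stayed positive with library totals only (0.89) and as each library was left out. Of the other 177 tested 3′ fragments 30 were positive (median -0.48). In 33 every KO library was below every WT library (10.1% of all RNAs), and 15 were called lower with the replicate block (3.56%). The next anticodons were Ala-TGC and Ala-CGC, with medians of 0.51, and His-GTG, with 0.40. The isodecoders were set apart after their values were seen and share reads, so their number is not a number of independent observations.

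tRNA-Cys-GCA-5 had 34.7, 36.6 and 59.4 CPM of 3′ fragments in WT and 89.4, 81 and 172 CPM in KO libraries. Replicate 3 was highest in each genotype and the groups were apart (log2 fold change 1.39, SE 0.365, adjusted p = 0.0956, and 0.003 with the replicate block, edgeR). Summed over isodecoders, 3′ fragments of tRNA-Cys-GCA had 129, 144 and 267 CPM in WT and 286, 229 and 764 CPM in KO libraries, so that KO replicate 2 was inside the WT range (log2 fold change 1.24, adjusted p = 0.384, and 0.0152 with the replicate block, edgeR). Other parts of the same tRNAs differed in sign. The 4 tested full-length entries were all positive (median 1.79), 15 of 21 tested 5′ fragments were positive (median 0.23) and none of 22 internal fragments was (median -0.52). Full-length tRNA-Cys-GCA-3 had 1.03, 0.954 and 1.52 CPM in WT and 5.34, 5.10 and 2.46 CPM in KO libraries, without overlap (log2 fold change 1.85, adjusted p = 0.194, and 0.0197 with the replicate block, edgeR).

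**Figure D5:**
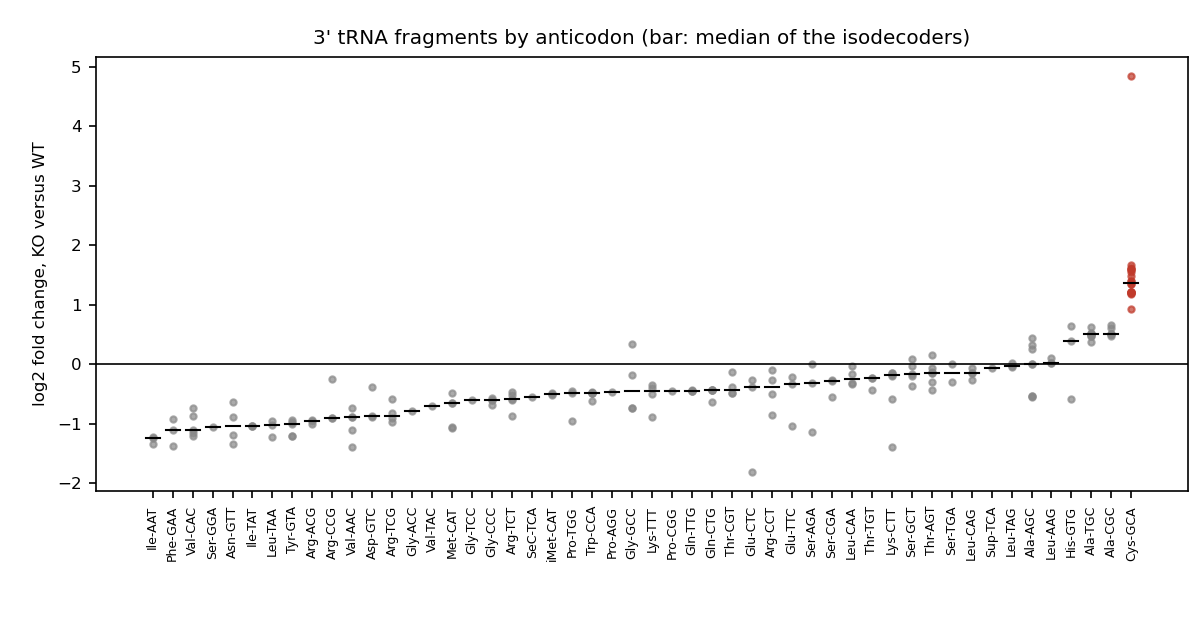
Log2 fold changes of tested 3′ tRNA fragments by anticodon (points are isodecoders, bars their medians), ordered by median. The Cys-GCA isodecoders, in red, all lie above 0 with a median of 1.37, and most other anticodons have medians below 0.

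Reads placed on tRNA gene loci, outside mature tRNAs, had the opposite sign to most fragments under TMM. Of 266 tested loci 215 were positive (median 0.53), but the median was -0.15 with library totals only. The locus tRNA-Arg-ACG-3-1 had 4.58, 5.50 and 7.69 CPM in WT and 11.1, 14.1 and 12.7 CPM in KO libraries, without overlap (log2 fold change 1.09, adjusted p = 0.161, and 0.0337 with the replicate block, edgeR).

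Loci of PIWI-interacting RNAs (piRNAs), which silence transposons in the germ line, lay near the median of all RNAs. Of 232 tested loci within genes 167 were positive (median 0.19). At an unadjusted p below 0.05, 4 were higher (7.74% of all RNAs) and 1 lower (7.37%, edgeR). Of 129 intergenic loci 67 were positive (median 0.02). Among the best counted of these, 1-qE2.3-2.1 had nearly the same values in all 6 libraries as the snRNA gene Gm22710. Each had a log2 fold change of 1.18 (adjusted p = 0.262, edgeR). Counts on a piRNA locus can therefore hold reads of another RNA. The locus pi-Tfcp2l1.1 had 1.69, 2.33 and 1.28 CPM in WT and 6.46, 6.13 and 2.58 CPM in KO libraries. Every KO library was above the WT (log2 fold change 1.52, adjusted p = 0.194, and 0.0358 with the replicate block, edgeR).

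The same KO was set against WT in caput tissue, the first segment, which entered the same model. The medians there were 0.17 for C/D box snoRNAs (57 of 81 positive), -0.10 for internal tRFs (56 of 210 positive) and -0.09 for 3′ fragments of tRNA-Cys-GCA (5 of 20 positive). Whether the KO changed an RNA differently in the cauda than in the caput was tested for each RNA, and none passed in either direction (128 lower and 83 higher at an unadjusted p below 0.05, edgeR, and 16 were called lower with the replicate block). For Gm23518 the caput log2 fold change was -0.18, and the cauda differed from it by -1.71 (adjusted p = 0.466, edgeR). For Snord96a the caput value was 0.29, and the cauda differed from it by 2.09 (adjusted p = 0.735, edgeR).

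Fluid and sperm of the cauda were counted in separate tables and are set beside the tissue without a test between them. C/D box snoRNAs had a median of 0.23 in fluid (14 of 20 positive) and of -0.15 in sperm (26 of 78 positive). Internal tRFs had a median of 0.39 in fluid (141 of 198 positive) and of -0.62 in sperm (25 of 196 positive). Of the 30 RNAs called in cauda tissue, 13 were tested in fluid, where 11 were positive (1095 of all 2023 RNAs). All 30 were tested in sperm, where 22 were positive (1236 of all 2480 RNAs). Many of them are copies that share reads and are not separate observations. Summed counts of sperm libraries were 52607365, 2899859, 1134840 and 3025269 in WT and 44325673, 42764979, 62128314 and 3618739 in KO. Neither table held a called RNA (57 lower and 131 higher in fluid and 235 lower and 199 higher in sperm at an unadjusted p below 0.05, edgeR). Gm23518 had a log2 fold change of 1.31 in fluid and of 0.60 in sperm.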

How the data were processed

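The deposited values were raw read counts per RNA. The authors trimmed reads with cutadapt, mapped them to mm10 with added tRNA and rRNA sequences in their own version of tRAX, and assigned them to Ensembl, piRNA and rRNA repeat annotations. The submitters' processing notes also name UMI-tools. No column of the tables was left unmapped to a sample.

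Counts of all 17 tissue libraries in 6 groups were fitted with edgeR 4.0.16 (R 4.3.3, limma 3.58.1) after filterByExpr (minimum count 10, minimum total 15) and TMM scaling, and the contrast KO minus WT cauda was tested by quasi-likelihood with Benjamini-Hochberg adjustment over 3488 RNAs. Log2 CPM used a prior count of 2. The same test was run on counts summed by family, and on fluid (18 libraries) and sperm (8 libraries) tables separately. For class shares and medians, exact permutation tests (2-sided, scipy 1.17.1) were used, which cannot go below p = 0.1. Errors are SD between libraries or SE of the model. Nearest named RNAs came from blastn 2.17.0 (e-value 1e-05), U RNA types needed 70% identity over 60% of the length, and 2097 of 2104 Ensembl names matched GENCODE M21 (GRCm38, the build of the files). Chi-square tests found more than counting error between all replicates, so no library was counted as a duplicate.

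Numbers in the sample titles were taken to pair the cauda libraries, from the correlations given in the text. In the caput, whose libraries are also in the model, the pairs of replicates 1, 2 and 3 had r = 0.0288, 0.518 and 0.723. There WT replicate 1 and KO replicate 2 had r = 0.251. In the corpus the pairs of replicates 1 and 2 had r = 0.150 and -0.0331. The block was thus chosen from the same data that it was used on, and its calls are not independent evidence. Alternatives were other scalings, filters of 20 and 30 counts or none, DESeq2 1.42.0, the 6 libraries alone, the replicate block, 1 entry per repeated RNA, and leaving out each library. Counts of the 3488 RNAs were also simulated, with 200 changed by a log2 fold change of 2. There edgeR called 54.5% of the changed RNAs and 3 unchanged ones, the blocked model 51.5% and 2, and DESeq2 68% and 11. The simulated counts were independent between RNAs, with no replicate effect, no shared reads and the same mean in all groups before the change. They therefore do not measure how many calls in the data are false.

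The RNAs, lists and tests were chosen with earlier results of these data known. Named RNAs were those called (of tRFs and rRNA repeats the 5 with the smallest p), the 3 with the smallest p and the 2 with the highest CPM of each class, named non-coding RNA genes, and the best counted member of each miRNA list. Gm24405, Gm47287, Gm47304, Mir5121, Gm23130, Gm25878, Snord95, Rn7s6, the 3′ fragments of tRNA-Cys-GCA-5 and the summed Cys-GCA fragments fall outside this rule and were chosen after their values were seen. The label for the section of a WT caput library says cauda, and the library was used as caput after its title. A member of the H/ACA class that the rule names is not reported here.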

Additional observations from a re-analysis of the deposited data

How the results depend on the processing

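The number of RNAs called lower, 29, stayed between 28 and 40 with DESeq2 size factors, library totals only, factors from RNAs outside tRFs, tRNAs and rRNA, no filter on low counts and the stricter filter. It was 17 with factors from miRNAs, 105 with DESeq2, 16 in a model of the 6 cauda libraries alone, and 19 to 39 as each library was left out, lowest without WT replicate 1. The single RNA called higher became 0 with every other scaling, with either filter and in each leave-one-out model except that without KO replicate 3 (38), 69 with DESeq2 and 2 in the 6 libraries alone. With the most counted entry of each repeated RNA alone, fewer RNAs were tested and 0 were called in either direction. Of the 30 calls, 29 were shared with DESeq2, 30 with the replicate block, 16 with the 6 libraries alone, 21 with library totals only and 19 to 27 with the leave-one-out models.

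With the replicate number as a block, taken as pairing the libraries, 124 RNAs were called lower and 202 higher, and the KO effect differed from the caput for 16, all lower. Counts summed by family gave 0 calls in either direction (unadjusted p-values below 0.05 for 117 lower and 129 higher), 63 lower and 108 higher with the block, and 33 lower and 9 higher with DESeq2. Leaving out each library gave 0 to 1 lower family, the 1 without WT replicate 3. Summing snRNA copies by sequence match, chosen after seeing the data, also gave 0. Blocked values for named RNAs stand in the report, and Rn7s2 and Gm47299 gained calls with it as their copies Rn7s1 and Gm47295 did.

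The difference of medians of C/D box snoRNAs, 1.14, was 0.61 with library totals only and 0.70 with factors from RNAs outside tRFs, tRNAs and rRNA, and that of internal tRFs, -0.74, was -1.27 and -1.18. With library totals only, the sign turned for Rnu3a (-0.12), Rny3 (-0.10), Rpph1 (-0.094), Rnu1a1 (-0.044) and Mirlet7c-2 (-0.072). Leave-one-out fold changes ran from -0.23 to 2.81 for Snord15b, from -0.061 to 0.74 for Rnu3a, from -0.45 to 0.15 for Mir10a and from -0.41 to 1.61 for mt-Tv. None of these RNAs was called, and the cause was not tested. The 1, 5 and 3 counts of Gm23763 in the KO libraries limit the precision of its values.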
